A study of Mus musculus with 6 samples.

Results

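The genes examined here are 10 genes of antigen presentation, read across whole kidneys of mice at postnatal day 13. They are the MHC class II genes Cd74, H2-Aa, H2-Ab1, H2-Eb1, H2-DMa, H2-DMb1 and Ciita and the MHC class I genes B2m, H2-K1 and H2-D1. They were chosen by name and found by their symbols. The rule holds no measured value, but the choice was made with earlier results of these data known. All 10 were present among the 24422 genes counted in each library. The study asked what the nephron needs transferrin receptor 1 (TfR1, gene Tfrc) for, and deleted it there. Control mice (3 libraries) carry the genotype label wild type. TfR1 knockout mice (3 libraries) are labelled Tfr1f/f;SixCre, and carried a Six2Cre driver that is active in the progenitors of the nephron tubules. Both groups are C57BL/6 by label, were 13 days old and received a diet with 220 ppm iron. The deletion is therefore directed at tubule cells, and leukocytes, vessels, stroma and collecting ducts do not descend from the targeted progenitors. The study describes tubule cells that appear to have escaped the deletion, a few scattered ones in the embryo. By postnatal day 13 it reports TfR1-positive cells in many proximal tubules. Most surviving thick ascending limb tubules were made up of such cells alone. Mice of both sexes were used. A knockout library is therefore a whole kidney that may hold many unrecombined as well as recombined tubule cells. Counts are shown after division by the DESeq2 size factor of each library (normalized counts), and log2 fold changes are TfR1 knockout over Control.

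MHC class II molecules carry peptides from endocytosed proteins and show them to CD4+ T cells. An alpha and a beta chain (H2-Aa with H2-Ab1, or an E alpha chain with H2-Eb1) assemble with the invariant chain Cd74, proteases trim Cd74 to a short remnant, and the H2-DM dimer (H2-DMa with H2-DMb1 or H2-DMb2) exchanges that remnant for peptide. Dendritic cells, B cells and macrophages are the usual sources of class II, and Ciita is the coactivator that switches the class II genes on by joining factors bound to their X and Y promoter boxes. Class I molecules, by contrast, are made by nearly all nucleated cells: a heavy chain such as H2-K1 or H2-D1 pairs with beta-2 microglobulin (B2m) and shows peptides cut by the proteasome to CD8+ T cells. Both arms are known to be raised by interferon gamma.

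The promoter stretches below are shown because they hold letters that match the X or Y boxes or the other promoter elements named below. They also place H2-DMb1, the gene among the 10 that DESeq2 called but other tests did not, beside its close copy H2-DMb2. They are RefSeq sequence of build GRCm38.p6, another build than the mm9 used for the counts, and are written 5′ to 3′ on the strand of the gene. RefSeq windows were at hand for 7 of the 10 genes, and Cd74, H2-Ab1 and Ciita had none. H2-DMa had 2 windows, of which only window 2 held a match, to the Y box and not to the X box core. It is not printed. Capitals mark matches, on either strand, to AACNGATG (the X box core), TGACG (the core of the X2 box and of site alpha), ATTGG (the Y box), GAANNGAAA (an interferon response element) and a palindromic NF-kB site. These motifs were chosen after the sequences had been read. Each printed stretch ends at the start site or earlier, and none holds transcribed UTR sequence.
H2-DMb1, chr17:34153089-34153144, plus strand: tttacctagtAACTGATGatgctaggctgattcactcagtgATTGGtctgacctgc
H2-DMb2, chr17:34145118-34145173, plus strand: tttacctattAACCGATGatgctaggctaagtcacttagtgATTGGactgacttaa
H2-Eb1, chr17:34305768-34305846, plus strand: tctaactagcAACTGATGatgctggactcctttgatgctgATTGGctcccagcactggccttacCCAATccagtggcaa
H2-Aa, chr17:34287857-34287907, minus strand: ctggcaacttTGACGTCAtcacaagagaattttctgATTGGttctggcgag
B2m, chr2:122147599-122147648, plus strand: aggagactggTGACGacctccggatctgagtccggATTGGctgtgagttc
H2-K1, chr17:34000349-34000468, minus strand: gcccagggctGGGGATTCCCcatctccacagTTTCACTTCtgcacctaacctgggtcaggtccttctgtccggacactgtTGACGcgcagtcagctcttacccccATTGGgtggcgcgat
H2-D1, chr17:35262913-35263055, plus strand: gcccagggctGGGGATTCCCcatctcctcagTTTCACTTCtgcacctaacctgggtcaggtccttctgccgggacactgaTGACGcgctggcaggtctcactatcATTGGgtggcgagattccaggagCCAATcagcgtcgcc
An X box core with a Y box within 40 bases was found in H2-DMb1, H2-DMb2 and H2-Eb1, and in 0.143% of the 32851 mouse promoter windows of the same length. The X box core alone was in 2.32% of them and the Y box alone in 37.4%, so a lone Y box is common. H2-K1 and H2-D1 held the NF-kB letters, found in 0.183% of windows, followed by an interferon response element, found in 7.52%. TGACG was found in 20.8% of windows. The promoter windows of H2-DMb1 and H2-DMb2 were 84.2% identical over 247 aligned bases. Those of H2-K1 and H2-D1 were 89.5% identical over 239 aligned bases. Gaps were left out of both values, so identity over the whole windows is lower. A match is a matter of letters in a window, and binding was not measured.

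**Figure D1:**
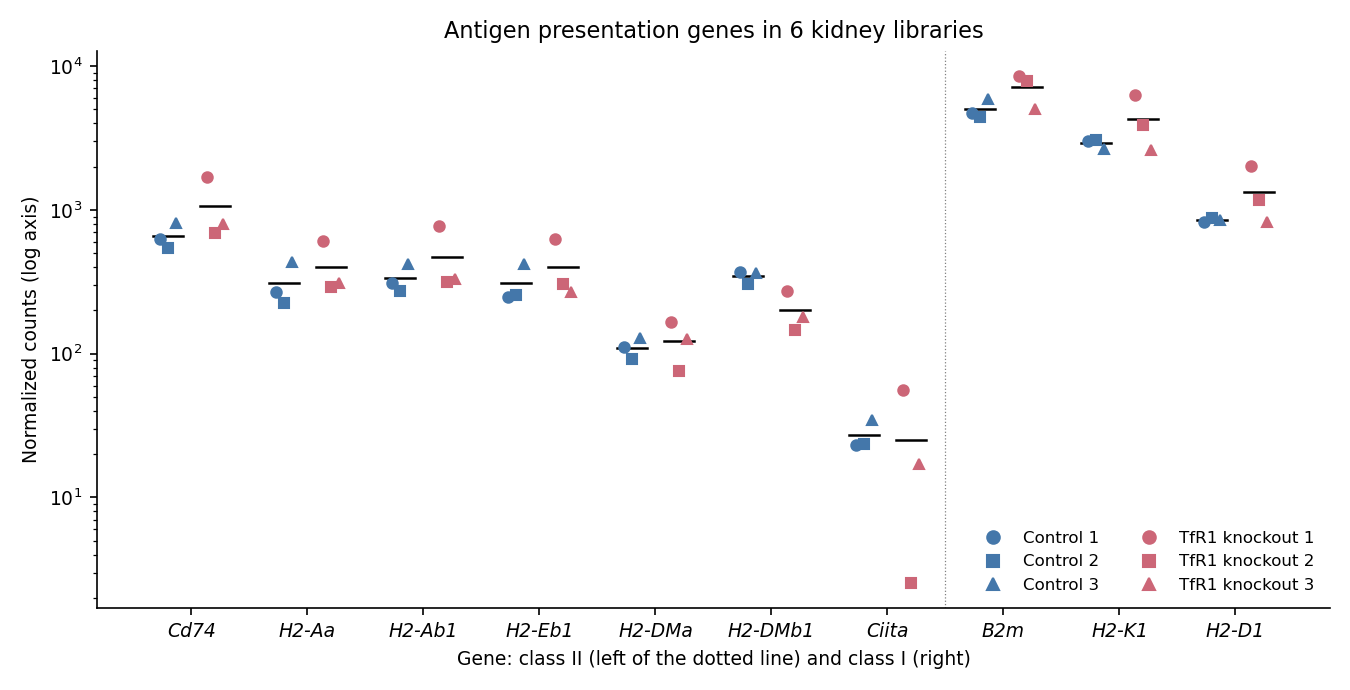
Normalized counts (log axis) of the 10 antigen presentation genes; each point is 1 library, with Control in blue and TfR1 knockout in red, and the horizontal bar is the group mean. TfR1 knockout replicate 1 is the top point for 9 of the 10 genes, and H2-DMb1 is the gene whose knockout points all lie under its Control points.

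Of the 10 genes, 1 passed the DESeq2 test at an adjusted p under 0.05, and it was lower in the knockout: H2-DMb1. Across all 16509 genes tested 7.18% were called lower and 7.74% higher, so 1 lower and 0 higher of 10 is near the background. By size, 0 of the 10 were both called and changed 2-fold or more, against 4.46% of all genes called 2-fold lower and 4.41% called 2-fold higher. Without adjustment 3 of the 10 had a p under 0.05 (H2-DMb1, B2m and H2-D1), beside 27.3% of all genes. With edgeR's quasi-likelihood test 0 of the 10 passed, 1 had an unadjusted p under 0.05, and 6.02% of all genes were called. With limma-voom 0 of the 10 passed, 1 had an unadjusted p under 0.05, and 6.15% of all genes were called. Measured log2 fold changes were positive for 8 of the 10 genes, with a median of 0.43 where the median over all genes was 0.0071. These are whole kidneys, so a different number of cells of a type and a different amount of RNA per cell cannot be told apart.

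A single library carried much of that median. TfR1 knockout replicate 1 had the highest level of the 6 libraries for 9 of the 10 genes, while it was the highest for 15.6% of all genes tested. When it was left out, the median log2 fold change of the 10 genes was -0.055, the 7 class II genes had a median of -0.10 in place of 0.37, and the 3 class I genes had 0.23 in place of 0.56. DESeq2 then called 0 of the 10 higher and 1 lower, where 9.56% of all genes were called higher and 10.5% lower. That gene, H2-DMb1, was then also past 2-fold, as were 7.16% of all genes in that direction. The summed level of the 7 class II genes ranged from 1711 to 2628 normalized counts in Control and from 1821 to 4194 in the knockout. For the 3 class I genes the sum ranged from 8372 to 9404 in Control and from 8438 to 16887 in the knockout. Both ranges overlap between the groups, and the upper end of each knockout range is replicate 1. The upper end of each Control range is replicate 3, and without that library the class II and class I medians were 0.66 and 0.64. Without Control replicate 1 or 2 the class II median was 0.24 or 0.18.

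**Figure D2:**
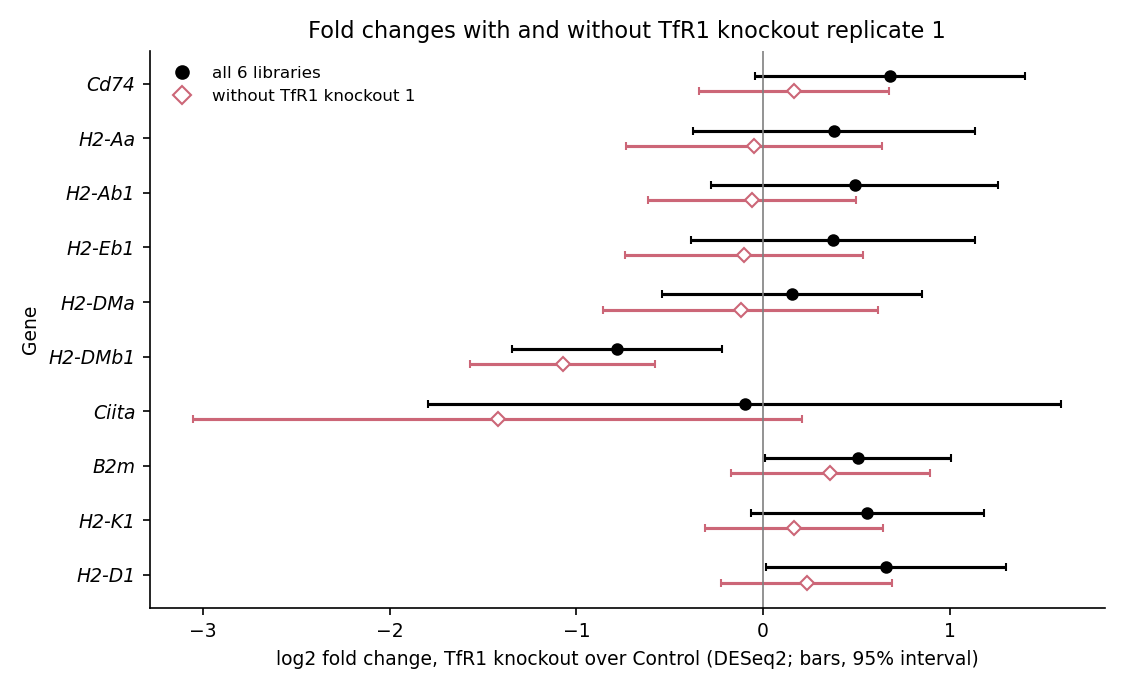
Log2 fold change, TfR1 knockout over Control, of each of the 10 genes with all 6 libraries and without TfR1 knockout replicate 1; filled points (all libraries) and open points (without it) are DESeq2 estimates and bars their 95% confidence intervals. The interval of H2-DMb1 lies to the left of 0 in both fits, and H2-Aa, H2-Ab1 and H2-Eb1 lie between -0.10 and -0.050 when that library is left out.

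Cd74, the invariant chain (mm9, chr18:60963502-60972300), was counted at 630.8, 541.7 and 817.0 in Control and at 1694.5, 689.6 and 796.5 in the knockout. Replicates 2 and 3 of the knockout lie within the Control range, and replicate 1 is above every other library. The means were 663 ± 140 and 1060 ± 552 (SD, n = 3 each), the log2 fold change was 0.68 (SE 0.37, 95% confidence interval -0.045 to 1.40), and the adjusted p by DESeq2 was 0.218. Without replicate 1 of the knockout the log2 fold change was 0.17.

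The beta chain H2-Ab1 (chr17:34400154-34406363) was counted at 311.7, 270.9 and 424.1 in Control and at 769.7, 313.5 and 329.2 in the knockout. Its neighbour, the alpha chain H2-Aa (chr17:34406276-34424772), had 268.8, 223.6 and 437.0 in Control and 609.6, 289.1 and 308.4 in the knockout. H2-Eb1 (chr17:34442828-34453144), the E beta chain, had 249.8, 254.5 and 420.9 in Control and 624.5, 303.2 and 270.5 in the knockout. All 3 chains share an order of libraries: knockout replicate 1 is the highest, Control replicate 3 comes next, and the other 4 libraries are close together, so the groups overlap. Log2 fold changes were 0.49 (SE 0.39) for H2-Ab1, 0.38 (SE 0.39) for H2-Aa and 0.37 (SE 0.39) for H2-Eb1, with DESeq2 adjusted p of 0.440, 0.564 and 0.572. Without knockout replicate 1 each of the 3 estimates was slightly negative, at -0.060, -0.050 and -0.10. The annotated ends of H2-Aa and H2-Ab1 overlap on opposite strands, and whether reads were assigned by strand is not given in the sources used here. The partner of H2-Eb1, the E alpha chain, is a pseudogene on the b haplotype (H2-Ea-ps), and it had 0 counts in each of the 6 libraries, which allows up to 3 counts per library.

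Cd74 moved with these chains from library to library. The ratio of Cd74 to H2-Ab1 was 2.02, 2.00 and 1.93 in Control and 2.20, 2.20 and 2.42 in the knockout. That ratio was somewhat higher in all 3 knockout libraries. It was chosen after the values were seen and was not tested.

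The chains of the H2-DM dimer were measured at unequal fold changes. H2-DMb1 (chr17:34290017-34297168), the beta chain of the peptide exchanger, was counted at 367.7, 304.5 and 366.0 in Control and at 274.5, 147.1 and 180.7 in the knockout. Every knockout library is lower than every Control library, replicate 1 included, a separation that 16.9% of all genes tested also show downward (and 16.9% upward). The means were 346 ± 36.0 and 201 ± 66.0 (SD, n = 3 each), the log2 fold change was -0.78 (SE 0.29, 95% confidence interval -1.34 to -0.22), and the adjusted p by DESeq2 was 0.0443. By edgeR the adjusted p was 0.118. Without knockout replicate 1 the log2 fold change was -1.07, and the call was lost when any of the other 5 libraries was left out, with DESeq2 adjusted p from 0.110 to 0.230.

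H2-DMa (chr17:34272127-34276046), the alpha chain, had 110.5, 91.8 and 128.1 in Control and 165.1, 75.5 and 125.8 in the knockout. Its groups overlap fully, since the knockout holds both the highest and the lowest library. The log2 fold change was 0.16 (SE 0.36), with a DESeq2 adjusted p of 0.823. The number of H2-DMb1 counts per H2-DMa count was 3.33, 3.32 and 2.86 in Control and 1.66, 1.95 and 1.44 in the knockout, again a ratio chosen after the values were seen and not tested. Each knockout ratio was below each Control ratio.

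H2-DMb2 (chr17:34280252-34288498), another H2-DM beta chain gene beside H2-DMb1, was higher in the knockout. It was counted at 6.6, 9.1 and 15.1 in Control and at 61.7, 25.6 and 31.2 in the knockout, so the groups do not overlap. It rose by 1.97 on the log2 scale (SE 0.61), with an adjusted p of 0.0128 by DESeq2 and 0.066 by edgeR. Without knockout replicate 1 the log2 fold change was 1.49 and the DESeq2 adjusted p 0.116. Of the reads counted to both beta chain genes, H2-DMb2 took 1.76%, 2.90% and 3.95% in Control and 18.3%, 14.8% and 14.7% in the knockout. The share in each knockout library is more than 3 times the share in any Control library. The 2 genes are close copies: their longest annotated transcripts were 94.7% identical over 1213 aligned bases, and 13.8% of the stretches of 100 bases (the read length) in H2-DMb1 occur unchanged in H2-DMb2. The authors kept reads that mapped to a single place, so how reads fall between the copies is uncertain. Both groups are labelled C57BL/6, and whether they share the MHC haplotype of the reference genome was not tested. When both were summed to 1 gene, the level was 374, 314 and 381 in Control and 336, 173 and 212 in the knockout. The groups overlap in that sum, its log2 fold change was -0.57 (SE 0.30), and the DESeq2 adjusted p was 0.196, so a difference in the total of the H2-DM beta chain was not called.

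**Figure D3:**
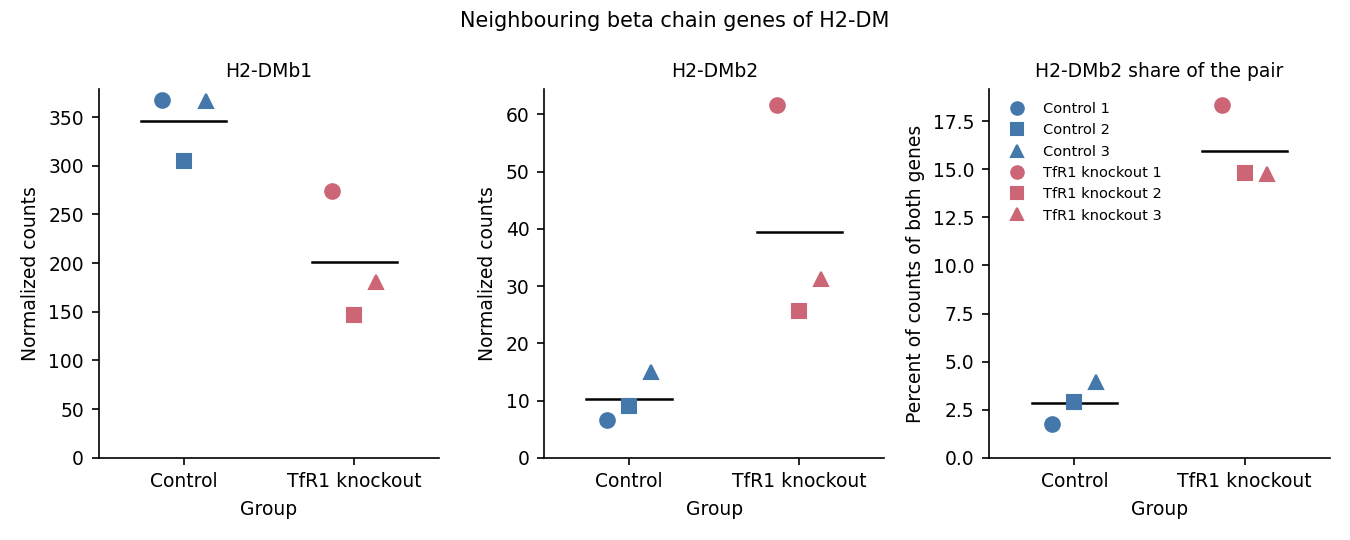
Normalized counts of H2-DMb1 (left) and H2-DMb2 (middle), and H2-DMb2 as a percent of the counts of both genes (right); each point is 1 library, the horizontal bar is the group mean, and the panels have their own axes. H2-DMb1 is lower and H2-DMb2 higher in all 3 knockout libraries, where H2-DMb2 holds 14.7% to 18.3% of the pair.

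Ciita (chr16:10480237-10527657), the class II coactivator, was counted at 23.1, 23.6 and 34.4 in Control and at 55.7, 2.6 and 17.0 in the knockout, which rest on raw counts of 28, 26 and 32 and of 56, 2 and 18. Knockout replicate 1 is the highest library and replicate 2 the lowest, so the knockout encloses the Control range. The log2 fold change was -0.10 (SE 0.87) with a DESeq2 adjusted p of 0.959, and its 95% confidence interval ran from -1.79 to 1.60, too wide to tell a large rise from a large fall at this depth. Its sign was positive without Control replicate 3 (0.10), knockout replicate 2 (0.43) or knockout replicate 3 (0.12), and without knockout replicate 1 the estimate was -1.42. The factors that bind the X box together, Rfx5, Rfxap and Rfxank, had log2 fold changes of -0.31, -0.01 and -0.30 with DESeq2 adjusted p of 0.473, 0.981 and 0.548. None of these regulators passed the test by DESeq2.

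Among the class I genes, B2m (chr2:121973422-121978819) was counted at 4743.5, 4409.2 and 5900.9 in Control and at 8540.2, 7886.2 and 5001.3 in the knockout. Knockout replicates 1 and 2 are above all Control libraries, and replicate 3 is within their range. The means were 5018 ± 783 and 7143 ± 1883 (SD, n = 3 each), the log2 fold change was 0.51 (SE 0.25), and the DESeq2 adjusted p was 0.173.

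The heavy chain H2-K1 (chr17:34132962-34137278) had 2999.6, 3085.8 and 2656.6 in Control and 6330.6, 3923.9 and 2617.5 in the knockout. The heavy chain H2-D1 (chr17:35399675-35404444) had 820.4, 877.1 and 846.1 in Control and 2015.7, 1175.8 and 819.2 in the knockout. Both heavy chains show the same order in the knockout, with replicate 1 highest, replicate 2 above every Control library and replicate 3 below every Control library. Log2 fold changes were 0.56 (SE 0.32) for H2-K1 and 0.66 (SE 0.33) for H2-D1, with DESeq2 adjusted p of 0.245 and 0.172. The H2-D1 to H2-K1 ratio stayed between 0.274 and 0.318 in Control and between 0.300 and 0.318 in the knockout, so the heavy chains moved almost in step over the libraries.

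The class I result turned on knockout replicate 3. Without that library all 3 class I genes passed the test as higher, where 5.33% of all genes did so. DESeq2 then gave log2 fold changes of 0.71 for B2m, 0.82 for H2-K1 and 0.92 for H2-D1, with adjusted p of 0.0228, 0.0378 and 0.0261. Without knockout replicate 1 in its place, the log2 fold changes were 0.36, 0.17 and 0.23, and 0 of the 3 passed. The longest annotated transcripts of H2-K1 and H2-D1 were 90.9% identical over 1568 aligned bases. Of the stretches of 100 bases in H2-D1, 3.91% occur in other genes, most often in H2-Q2. The counts of H2-D1 may therefore miss or share some reads.

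To compare the genes with each other, normalized counts were divided by the length of all exons of a gene in kb. In Control B2m was the highest at 5835 ± 910 normalized counts per kb, followed by H2-K1 at 1117 ± 87.1 and Cd74 at 470 ± 99.6. H2-D1 was at 328 ± 11, H2-Eb1 at 259 ± 81.9, H2-DMb1 at 234 ± 24.4, H2-Ab1 at 204 ± 48.3 and H2-Aa at 156 ± 56.6 (each SD, n = 3). H2-DMa followed at 67.1 ± 11.1, and Ciita was the lowest at 4.36 ± 1.03 per kb. Neighbours from H2-Eb1 to H2-Aa lie within their spread and have no firm order. In the knockout H2-DMb1 moved from the 6th to the 8th place. When the median transcript length was used in place of all exons, 4 of the 10 genes kept their place, so the order depends on the length chosen.

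Of 12 genes that act on or with class II molecules, 9 could be tested, 2 rose, 1 fell, and the median log2 fold change was -0.014. Such counts, here and in the later lists, stand beside the 7.74% of all genes called higher and 7.18% called lower by DESeq2. Ctss, the cathepsin S gene whose product degrades the invariant chain in antigen presenting cells, was counted at 102, 105 and 209 in Control and at 836, 1085 and 542 in the knockout. Its knockout libraries are all well above its Control libraries. Ctss rose by 2.57 on the log2 scale (SE 0.37), with an adjusted p of 7.53e-10 by DESeq2 and 0.0131 by edgeR, and by 2.56 without knockout replicate 1. Ctsl, the cathepsin that does this work in thymic epithelium and serves as a general lysosomal protease elsewhere, fell by 0.77 on the log2 scale (DESeq2 adjusted p 0.0383, edgeR 0.125). The other gene that rose was H2-DMb2. With 1 library left out at a time, 1 to 2 of these genes were called higher (1 without Control replicate 1 or 2 or knockout replicate 1) and 0 to 1 lower, where the 1 lower call came without knockout replicate 2. H2-Ob, the beta chain of the H2-DM inhibitor, had a DESeq2 adjusted p of 0.618.

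Of the 14 genes that cut, carry or load class I peptides, all were tested, 2 rose and 0 fell, beside 7.74% and 7.18% of all genes. The median log2 fold change was 0.33, or 0.11 without knockout replicate 1. That library was the highest for 10 of the 14. Tapbp, encoding tapasin, which holds class I at the peptide transporter, was counted at 2580, 2410.5 and 1853 in Control and at 4839, 4236 and 3242 in the knockout. It rose by 0.85 on the log2 scale (SE 0.23), with an adjusted p of 0.00321 by DESeq2 and 0.0535 by edgeR. Tap1, a subunit of that transporter, had 267, 235 and 348 in Control and 1129, 429 and 380 in the knockout. Both genes separate the groups, but for Tap1 replicate 1 stands far above the other knockout libraries. Tap1 rose by 1.19 on the log2 scale (SE 0.43, DESeq2 adjusted p 0.0396, edgeR 0.140), and its log2 fold change without replicate 1 was 0.52, with a DESeq2 adjusted p of 0.171. Without Control replicate 1 or 2 or knockout replicate 1, 1 of the 14 rose in place of 2, and without the last 1 also fell. The other transporter subunit, Tap2, had a log2 fold change of 0.38 and an adjusted p of 0.328. The immunoproteasome subunits Psmb8 and Psmb9 had 0.70 and 0.24, with DESeq2 adjusted p of 0.271 and 0.859. Nlrc5, the class I counterpart of Ciita, was counted at 40.4, 30.9 and 40.9 in Control and at 181, 19.2 and 15.1 in the knockout. Its replicate 1 is the highest library and its other 2 knockout libraries are the lowest, and the DESeq2 adjusted p was 0.502.

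Of 24 other class I and class I-like chains, 13 could be tested, 0 were higher and 3 lower by DESeq2 (4 had an unadjusted p under 0.05), and 5 of the 24 had 0 counts in each library, which allows up to 3 counts per library. H2-Q2, a Qa-region class I gene, was counted at 101, 90 and 71 in Control and at 8.0, 7.7 and 17.0 in the knockout. H2-Q1, of the same region, had 48.6, 46.4 and 59.2 in Control and 10.9, 12.8 and 5.7 in the knockout. Both were several times lower in every knockout library. On the log2 scale H2-Q2 fell by 2.98 (SE 0.46) and H2-Q1 fell by 2.41 (SE 0.50), with adjusted p of 1.16e-08 and 4.19e-05 by DESeq2 and of 0.0108 and 0.0192 by edgeR. Cd1d1, which presents lipids, fell by 0.91 on the log2 scale (DESeq2 adjusted p 0.0342, edgeR 0.109, and 0.0807 by DESeq2 without knockout replicate 1). In this list 2 genes were lower in place of 3 without Control replicate 1 or knockout replicate 1 or 3, and 1 was higher without the last. H2-Q1 and H2-Q2 belong to a family of near copies, so reads counted to them are uncertain in the same way as for H2-DMb1, and the untested MHC haplotype bears on them too.

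**Figure D4:**
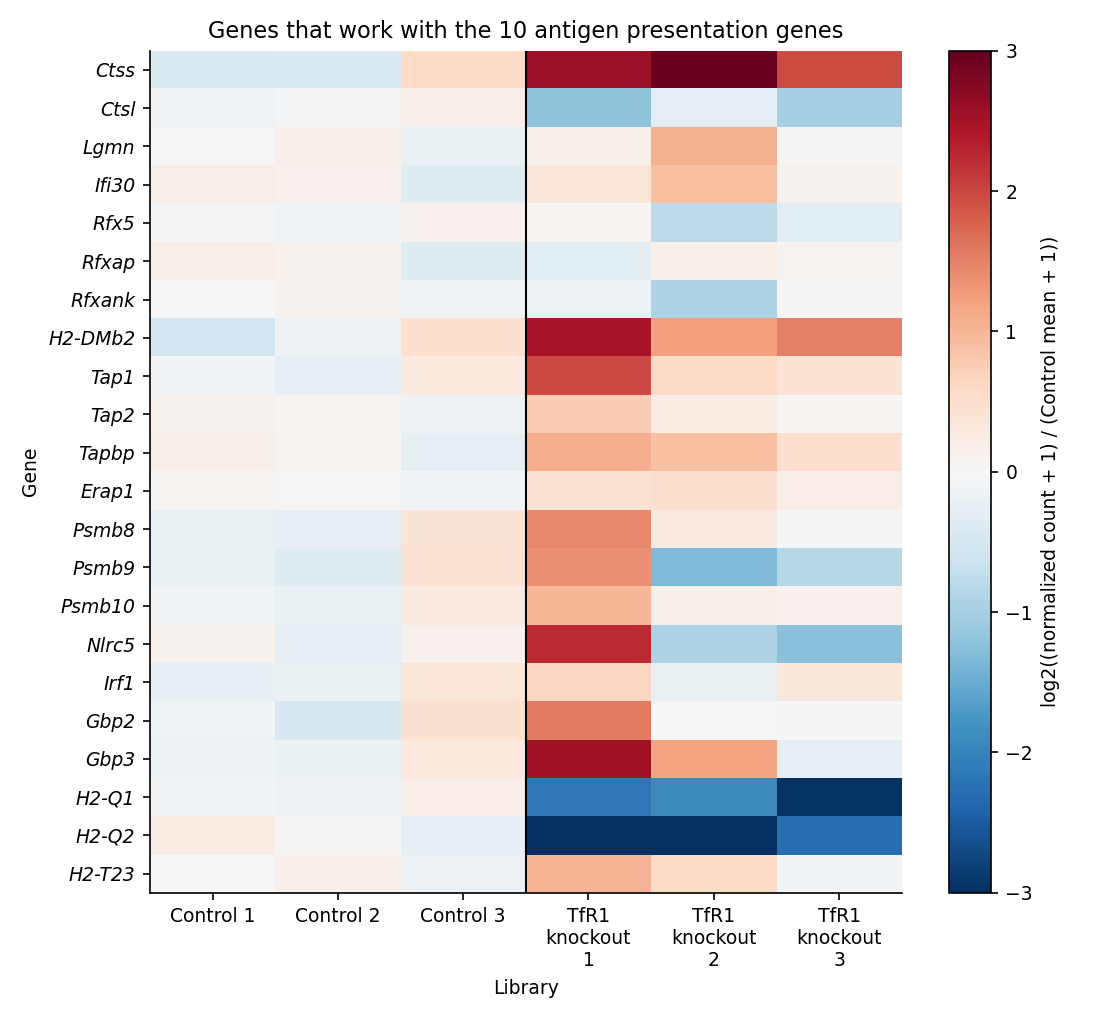
Log2 ratio of each library to the Control mean (1 normalized count added to both) for partner and regulator genes of class II and class I presentation; columns are the 6 libraries, red is above and blue below the Control mean, and ratios past 3 or -3 are drawn in the end colours. Ctss and H2-DMb2 are red in all 3 knockout libraries, H2-Q1 and H2-Q2 are blue in all 3, and Nlrc5 and Gbp2 are strongly red in knockout replicate 1 alone.

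Among 20 genes of the interferon gamma pathway, 19 were tested, 3 rose and 0 fell, beside 7.74% and 7.18% of all genes. The median log2 fold change was 0.69, or 0.13 without knockout replicate 1, which was the highest library for 12 of the 20. Ifng itself had 0 counts in each library, which allows up to 3 counts per library. The genes that rose were the chemokine gene Cxcl10 (log2 fold change 2.11, DESeq2 adjusted p 0.00397) and the guanylate binding protein gene Gbp3 (1.57, 0.0426). The receptor chain gene Ifngr1 also rose (0.90, 0.0204). None of these passed by edgeR. Without knockout replicate 1, Gbp3 was at 0.62 (DESeq2 adjusted p 0.361) and Cxcl10 at 1.31 (0.0549). Ifngr1 kept its call without that library (1.11, 7.73e-04), and Irf2, of the same list, was then called (0.62, 0.0415). The count of genes that rose was 1 without Control replicate 1 or 2 and 5 without Control replicate 3. The highest levels of Nlrc5, Tap1 and 9 of the 10 antigen presentation genes therefore occurred in the same knockout library; the part of the interferon pathway in the antigen presentation values was not tested. Of 7 costimulation and adhesion genes, 6 were tested and 2 rose: Cd86, a ligand of CD28 (log2 fold change 1.33, DESeq2 adjusted p 0.0140), and Icam1, an adhesion ligand (1.06, 5.93e-04). Without Control replicate 1 or 2 or knockout replicate 2 or 3, 1 of them was called.

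Markers of the cells that present antigen were read beside the 10 genes. Of 15 macrophage genes, all were tested and 9 rose with 0 lower by DESeq2, 6 rose by edgeR, and the median log2 fold change was 1.52. Their summed level was 3766 to 5837 normalized counts in Control and 8868 to 12066 in the knockout, without overlap. C1qa, a complement gene of tissue macrophages, rose by 1.54 on the log2 scale (DESeq2 adjusted p 2.69e-04), Lyz2, the lysozyme of myeloid cells, by 1.81 (4.89e-07), and Itgam, the integrin chain CD11b, by 2.44 (5.77e-07). Without knockout replicate 1, 8 of the 15 were still called higher and 1 was called lower. The receptor gene Csf1r had a log2 fold change of 0.36 and an adjusted p of 0.199. Of 10 neutrophil genes, 8 were tested and 4 rose, with summed levels of 179 to 445 in Control and 390 to 1195 in the knockout. By edgeR and limma-voom 0 neutrophil genes passed (5 and 5 had an unadjusted p under 0.05). The DESeq2 neutrophil count was 0 without Control replicate 1 or knockout replicate 2, 1 without Control replicate 2 or knockout replicate 3, and 4 of the 8 tested passed without knockout replicate 1. Of 10 pan-leukocyte genes 3 rose by DESeq2 and 1 by edgeR, with 1 to 5 when 1 library was left out (1 without Control replicate 1 or 2 or knockout replicate 3, and 5 without Control replicate 3), and Ptprc (CD45) had a log2 fold change of 0.81 with a DESeq2 adjusted p of 0.0627.

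Of 12 dendritic cell genes, 11 were tested, 0 were higher and 1 was lower by DESeq2 (1 had an unadjusted p under 0.05). Over all genes tested 7.74% were called higher and 7.18% lower. A single called gene, here and in the lists that follow, is therefore near the background. The summed level was 434 to 760 in Control and 429 to 522 in the knockout. Batf3, a factor of cross-presenting dendritic cells, fell by 1.46 on the log2 scale (DESeq2 adjusted p 0.0102, edgeR 0.084). Clec9a and Xcr1, surface markers in the same list, had log2 fold changes of 0.42 and 0.07 (DESeq2 adjusted p 0.546 and 0.955). The median of the list was -0.055, with 4 of the 11 tested genes positive. No dendritic cell gene was called without Control replicate 1 or 2 or knockout replicate 3. Of 10 B cell genes, 9 were tested, 0 were higher and 1 was lower (2 had an unadjusted p under 0.05), with a median of -1.27 and summed levels of 193 to 279 in Control and 67.8 to 201 in the knockout. Ms4a1 (CD20) was the B cell gene that fell, by 2.81 on the log2 scale (DESeq2 adjusted p 0.0453), a call lost when any library but knockout replicate 1 was left out; without that library 3 B cell genes fell. The summed B cell level was lowest in knockout replicate 2, the library in which Ciita had 2 counts. T and NK cell genes summed to 154 to 226 in Control and 219 to 250 in the knockout, with 1 of 8 tested higher (Lck; none was called without Control replicate 1 or 2 or knockout replicate 2 or 3), and Cd3e was at or below 9.1 in every library. The median log2 fold change of the T and NK cell genes was -0.55, with 2 of 8 positive, so the sum and the median differ in sign. Of 10 endothelial genes, 1 rose (Flt1, DESeq2 adjusted p 0.0251, with no endothelial gene called without Control replicate 1 or 2 or knockout replicate 2 or 3) and the median log2 fold change was 0.054.

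Ratios of class II to leukocyte genes were read in each library. The sum of Cd74, H2-Aa, H2-Ab1 and H2-Eb1 per 100 normalized counts of the macrophage genes was 38.8, 33.5 and 36.0 in Control and 30.7, 18.0 and 16.4 in the knockout. Cd74 per C1qa was 2.50, 1.97 and 1.57 in Control and 1.31, 0.956 and 0.773 in the knockout. In these 2 measures each knockout ratio is below each Control ratio. Cd74 per Csf1r, a receptor gene of macrophages, was 0.642, 0.470 and 0.774 in Control and 1.23, 0.605 and 0.504 in the knockout, and these ranges overlap with the highest ratio in knockout replicate 1. Cd74 per Ptprc was 3.54, 3.53 and 2.64 in Control and 3.94, 1.94 and 2.39 in the knockout, and H2-Ab1 per Ptprc was 1.75, 1.76 and 1.37 in Control and 1.79, 0.881 and 0.986 in the knockout. Both ranges overlap, so whether the class II ratio separates the groups depends on the marker taken as denominator. The ratios were chosen after the values were seen and were not tested, and the part of each cell type in the levels of the 10 genes was not tested.

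**Figure D5:**
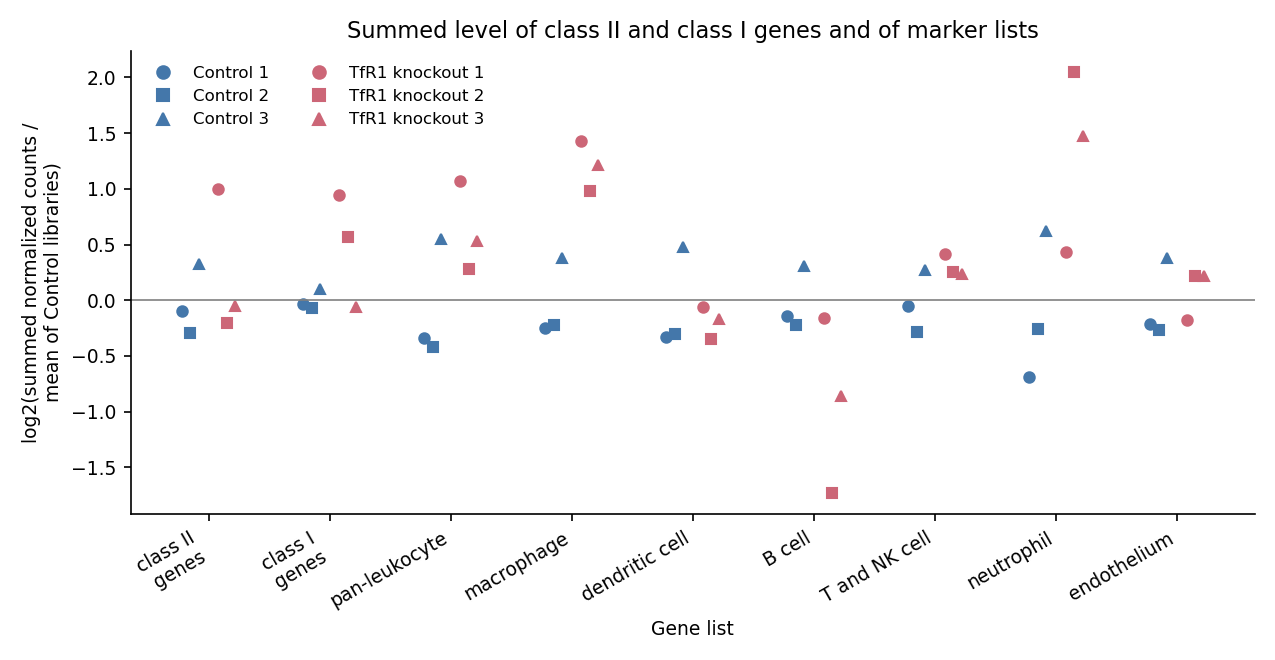
Log2 ratio of summed normalized counts to the mean of the Control libraries for the 7 class II genes, the 3 class I genes and lists of marker genes; each point is 1 library, coloured by group and shaped by replicate. The macrophage sum is higher in all 3 knockout libraries, while the class II, class I, dendritic cell and B cell sums overlap between Control and TfR1 knockout.

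The libraries held 16591156 to 22898008 counts each. Tfrc, the targeted gene, had 5229 ± 1434 normalized counts in Control and 5640 ± 1482 in the knockout (SD, n = 3 each), a log2 fold change of 0.11 with a DESeq2 adjusted p of 0.853. The floxed part is exons 3 and 4, and a count over the whole gene in a whole kidney does not check the labels. All 8 genes of kidney segments were tested, 1 was higher and 4 were lower, with summed levels of 86977 to 188805 in Control and 63315 to 98893 in the knockout. Their tubule genes were therefore present in every library. Part of the normalization rests on tissue whose own genes differ between the groups, and its part in the values above was not tested. Control replicate 3 alone makes the low end of the Control range (86977, beside 179418 and 188805) and lies within the knockout range. It also had the highest pan-leukocyte sum in Control (2073, beside 1121 and 1056). The same holds for its endothelial sum (41279, beside 27319 and 26360). Whether the tissue composition of that library differs was not tested.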

How the data were processed

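Polyadenylated RNA of whole kidneys was sequenced from 3 Control and 3 TfR1 knockout mice at postnatal day 13 (single-end reads of 100 bases). According to the study's methods and the submitters' processing notes, the authors called bases with CASAVA 1.8.2, trimmed reads with Trimmomatic, aligned them to mm9 with TopHat2 2.0.11, kept uniquely mapped reads and counted them per gene with HTSeq. The deposited values are raw counts for 24422 genes in each library, and 19985 genes had at least 1 count. Reads that fit several near-identical genes are missing from such counts.

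Groups followed the GEO labels. Libraries were compared with DESeq2 1.42.0 (R 4.3.3; median-ratio size factors, Wald test, Benjamini-Hochberg adjusted p under 0.05, and 2-fold as in the study), fitted on all genes; the lowest mean normalized count tested was 3.51. Library totals of 16591156 to 22898008 set the precision, and intervals of 0 counts cover counting error only. edgeR 4.0.16 (quasi-likelihood test), limma 3.58.1 (voom), other size factors and filters, a replicate block and leaving out each library were alternatives. All 10 genes and the 13 companion lists (164 genes) were chosen with earlier results of these data known, as were the genes named from the lists: those called by DESeq2, defining markers, and partners or regulators of the 10. The sum of H2-DMb1 and H2-DMb2 and the ratios were added after the data were seen. Scripts were tested on simulated counts. Positions are from GENCODE annotation of mm9, promoter sequence from RefSeq (GRCm38.p6).

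The files hold replicate numbers in both groups. Deviations from the group means of same-numbered libraries had correlations across genes of -0.0378, 0.0548 and 0.0899, none above 0.1, and libraries were treated as unpaired.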

Additional observations from a re-analysis of the deposited data

How the results depend on the processing

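Over the refits of the 10 genes, with the sum of H2-DMb1 and H2-DMb2 counted as 1 more for H2-DMb1, 132 values kept the direction and the side of the threshold, 7 changed sign, 9 lost and 3 gained a call, and other size factors or a low-count filter changed no call among the 10. By edgeR, limma-voom or with independent filtering off, 0 of the 10 genes were lower (1 by DESeq2), and H2-DMb1 had adjusted p of 0.118, 0.0962 and 0.0535. For all genes, edgeR and limma-voom called 493 and 485 higher and 428 and 456 lower, of which 380 and 365 higher and 353 and 372 lower were 2-fold, where DESeq2 called 1277 higher and 1186 lower (728 and 736 2-fold). Of the companion genes they called 10 and 11 higher and 4 and 4 lower, where DESeq2 called 28 and 10. Why the tools differ was not tested.

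Leaving out each library gave 0 to 3 of the 10 genes higher (3 without TfR1 knockout replicate 3), 0 to 1 lower and 0 to 1 lower by 2-fold (1 without knockout replicate 1). It gave 664 to 1531 of all genes higher and 575 to 1674 lower (2-fold: 537 to 821 and 498 to 1146), and 14 to 35 companion genes higher and 5 to 13 lower. Log2 fold changes changed sign for H2-Aa (-0.050 to 0.71), H2-Ab1 (-0.060 to 0.72), H2-Eb1 (-0.10 to 0.66) and H2-DMa (-0.12 to 0.41), each negative without knockout replicate 1, and for Ciita (-1.42 to 0.43). The sign held for Cd74 (0.17 to 0.91), H2-DMb1 (-1.07 to -0.60), B2m (0.36 to 0.71), H2-K1 (0.17 to 0.82) and H2-D1 (0.23 to 0.92).

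Adding replicate number to the DESeq2 model (a replicate block), 0 of the 10 genes were higher and 1 lower (H2-DMb1, log2 fold change -0.83, DESeq2 adjusted p 0.0387), 1 class II partner in place of 2 was higher, and 1085 of all genes were higher and 1087 lower. The libraries share only a number, so no pairing was used. With the median transcript length, 4 of 10 genes kept their place in the order of levels. Raw counts of 2 to 56 limit Ciita, and 3 libraries per group limit every test.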

Other observations

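As a description of the libraries, the genes whose levels followed Cd74 and B2m most closely within the groups were listed. Pearson correlations were taken over the 6 libraries, on log2 normalized counts with 1 added and the group means removed, across 12114 genes with a mean of at least 100. For Cd74 the closest were Pola1 (0.999), Dph6 (0.996), Wnt4 (0.996), H2-Ab1 (0.995) and Rtn4 (0.994). For B2m they were H13 (0.998), Amn1 (0.995), Sf3b6 (0.992), Fabp3 (0.991) and Mrpl13 (0.988). The points are 6 libraries, each with its own depth and cell composition that all its genes share, so the values carry no p. They are the highest of 12114 genes over 6 libraries, so values this high can come from the ranking alone. Shared regulation was not tested. H2-Ab1 is the one class II gene in either list, and no class I heavy chain was among the 5 closest to B2m.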
